A study of Mus musculus with 12 samples.

Results

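The 38 genes described here encode the enzymes and carriers of glycolysis and a set of classical targets and regulators of the hypoxia response. No measured value enters the rule that lists them by name, although the list was drawn up with earlier results of these data known. They comprise 3 regulators, 4 glucose and monocarboxylate transporters, 12 genes of upper glycolysis, 6 of lower glycolysis, 3 that set the fate of pyruvate and 10 other hypoxia targets, out of 55335 genes counted in the series. RNA-seq was performed on neutrophils of 3 groups of 4 mice, with 1 library per mouse. All mice were on the FVB strain, were 10 weeks old and were kept in SOPF housing (specific and opportunistic pathogen free). Tumor-associated neutrophils (TANs) came from mammary tumors of PyMT mice, whose mammary gland expresses the polyoma middle T oncogene, and from tumors of PyMT-Cxcr2-/- mice, which also lack the chemokine receptor Cxcr2. The comparison group was bone marrow (BM) neutrophils of WT mice, which have neither change. No BM neutrophils of tumor-bearing or Cxcr2-/- mice and no WT tissue neutrophils were among the 12 libraries, so tumor, tissue and the tumor-bearing state cannot be told apart. TANs were released from tumors by enzymes and BM cells were spun out of femurs and tibias, and this handling cannot be told apart from the tissue either. Both were enriched on CD11b and sorted as CD45+ CD11b+ Ly6G+ F4/80- cells.

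Glycolysis splits glucose into pyruvate in the cytosol, and neutrophils, which hold few mitochondria, draw most of their ATP from it. When oxygen is low, the transcription factor Hif1a escapes hydroxylation by the prolyl hydroxylases Egln1 and Egln3, pairs with Arnt and binds short sequences with the core ACGTG or GCGTG near its target genes. These targets include glucose carriers, most glycolytic enzymes, Pdk1, which keeps pyruvate out of the mitochondria, and genes of mitophagy, matrix synthesis and pH control.

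The promoters of the members were read from RefSeq (build GRCm38.p6) as the 250 bases before to 50 after each start, 300 bases in all. A promoter was listed for 35 of the 38 members and 50 promoters in total, since some genes have several starts. Of these 50, 41 (82%) held ACGTG or GCGTG on either strand, compared with 43.8% of all 32851 promoters. ACGTG alone was in 58% of the members' promoters and in 19.6% of all promoters. The members' promoters were richer in GC, with a median of 62.7% against 52.7%, and among promoters of at least 60% GC the shares were 96.4% and 69.2%. The promoters of 4 members are shown because their genes carry the results below, and capitals mark each ACGTG or GCGTG and their reverse complements CACGT and CACGC. Slc2a1 and P4ha1 were far higher in TANs than in BM neutrophils, while Hk3 and Pgk1 were lower in PyMT TANs.
Slc2a1, chr4:119108495-119108794, plus strand: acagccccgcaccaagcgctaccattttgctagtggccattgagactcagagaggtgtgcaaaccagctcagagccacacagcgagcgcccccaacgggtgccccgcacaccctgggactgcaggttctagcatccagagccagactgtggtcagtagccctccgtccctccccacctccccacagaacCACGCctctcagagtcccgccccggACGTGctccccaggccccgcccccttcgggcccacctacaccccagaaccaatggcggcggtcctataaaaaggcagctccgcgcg
P4ha1, chr10:59323046-59323345, plus strand: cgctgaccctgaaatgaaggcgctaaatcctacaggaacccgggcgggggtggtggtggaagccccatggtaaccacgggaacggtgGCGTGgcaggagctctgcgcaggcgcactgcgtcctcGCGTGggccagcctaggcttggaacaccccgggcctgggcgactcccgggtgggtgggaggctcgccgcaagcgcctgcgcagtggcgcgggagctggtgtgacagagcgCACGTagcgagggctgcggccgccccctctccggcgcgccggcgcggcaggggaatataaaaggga
Hk3, chr13:55021336-55021635, minus strand: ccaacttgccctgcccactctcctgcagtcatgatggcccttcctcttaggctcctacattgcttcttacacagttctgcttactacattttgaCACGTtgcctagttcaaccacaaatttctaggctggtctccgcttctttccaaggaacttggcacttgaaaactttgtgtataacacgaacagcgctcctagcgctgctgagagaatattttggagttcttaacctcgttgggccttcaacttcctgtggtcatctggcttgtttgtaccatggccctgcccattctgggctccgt
Pgk1, chrX:106186850-106187149, plus strand: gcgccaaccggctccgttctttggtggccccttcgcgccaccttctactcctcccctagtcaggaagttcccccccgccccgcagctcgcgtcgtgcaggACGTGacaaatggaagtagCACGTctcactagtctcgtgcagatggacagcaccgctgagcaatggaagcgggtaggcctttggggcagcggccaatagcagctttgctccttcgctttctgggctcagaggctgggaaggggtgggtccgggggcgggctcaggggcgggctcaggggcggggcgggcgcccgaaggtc
The P4ha1 promoter holds 3 such cores, the Slc2a1 and Pgk1 promoters 2 each and the Hk3 promoter 1. The presence of a core did not separate the members by direction. Of the 20 members higher in PyMT TANs than in BM, all 20 had a listed promoter and 18 held a core, while of the 12 lower members 9 had a listed promoter and 8 held a core. A match of 5 letters is a description of the sequence and not a binding site.

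Reads on genes numbered 25032704 to 51351569 per library, so that a level of 3 reads was 0.0584 to 0.12 CPM (counts scaled to the library total and its TMM factor), for counting error only. The genotype check held, with Cxcr2 at 1030 to 1536 CPM in PyMT TANs, 8.97 to 10.1 CPM in the PyMT-Cxcr2-/- group and 1818 to 2250 CPM in BM neutrophils. A list of 9 neutrophil markers summed to 10435 to 17030 CPM in PyMT TANs, 18414 to 30409 CPM in the PyMT-Cxcr2-/- group and 78095 to 103475 CPM in BM, and none of its genes was at 0 in a group. A list of 9 macrophage markers summed to 2136 to 5082, 2318 to 4843 and 214 to 310.5 CPM in the same order, and 9 mammary epithelial markers to 47.5 to 445.2, 84.1 to 312.6 and 0.0599 to 0.514 CPM. Krt8, Krt14, Krt5, Csn2 and Csn3 were at 0 in every BM library. In such bulk RNA, fewer cells of a type and less RNA per cell cannot be told apart, and the part of other cells in the results below was not tested. The library of PyMT TAN mouse 3 stood apart with an erythroid marker sum of 130.3 CPM, compared with 1.38 to 2.57 CPM in the other PyMT TANs.

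Against BM neutrophils, the members did not move in 1 direction, and genes of the same pathway parted within single steps. All 38 members passed the filter on low counts in every comparison. Adm and P4ha2, nearly absent from BM, passed it against BM only through the TANs and could only come out higher. In PyMT TANs, 20 members (52.6%) were higher and 12 (31.6%) lower than in BM at an adjusted p under 0.05 and a 1.5-fold change or more, compared with 30.1% higher and 23.2% lower among the 17153 genes tested. In PyMT-Cxcr2-/- TANs, 20 (52.6%) were higher and 9 (23.7%) lower, compared with 34.4% and 25.1% of 17732 genes. The median log2 fold change over the members was 1.02 in PyMT TANs and 0.93 in PyMT-Cxcr2-/- TANs, beside 0.09 for all genes tested in each. The mean log2 CPM over the members was 6.13 ± 0.23 (SD, n = 4) in PyMT TANs, 6.12 ± 0.08 in the PyMT-Cxcr2-/- group and 5.17 ± 0.12 in BM. The 8 TAN libraries lay at 5.95 to 6.47, all above the BM libraries at 5.08 to 5.34. The mean over the members differed from BM by 0.97 and 0.96 on the log2 scale, whereas the median over the members differed by 0.38 and 0.33. Both TAN comparisons share the same 4 BM libraries, so their values stand side by side and are not independent. Scaling by library totals alone shifted all genes by a median of 0.44 on the log2 scale in PyMT TANs and 0.18 in PyMT-Cxcr2-/- TANs, and it then gave 23 members higher and 5 lower in PyMT TANs and 21 higher and 4 lower in PyMT-Cxcr2-/- TANs. Of the called members 82.1% and 84% were then on the higher side, up from 62.5% and 69%, and of all called genes 72.8% and 65.2%, up from 56.4% and 57.9%. The heat map of the 38 genes by mouse shows both directions.

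**Figure D1:**
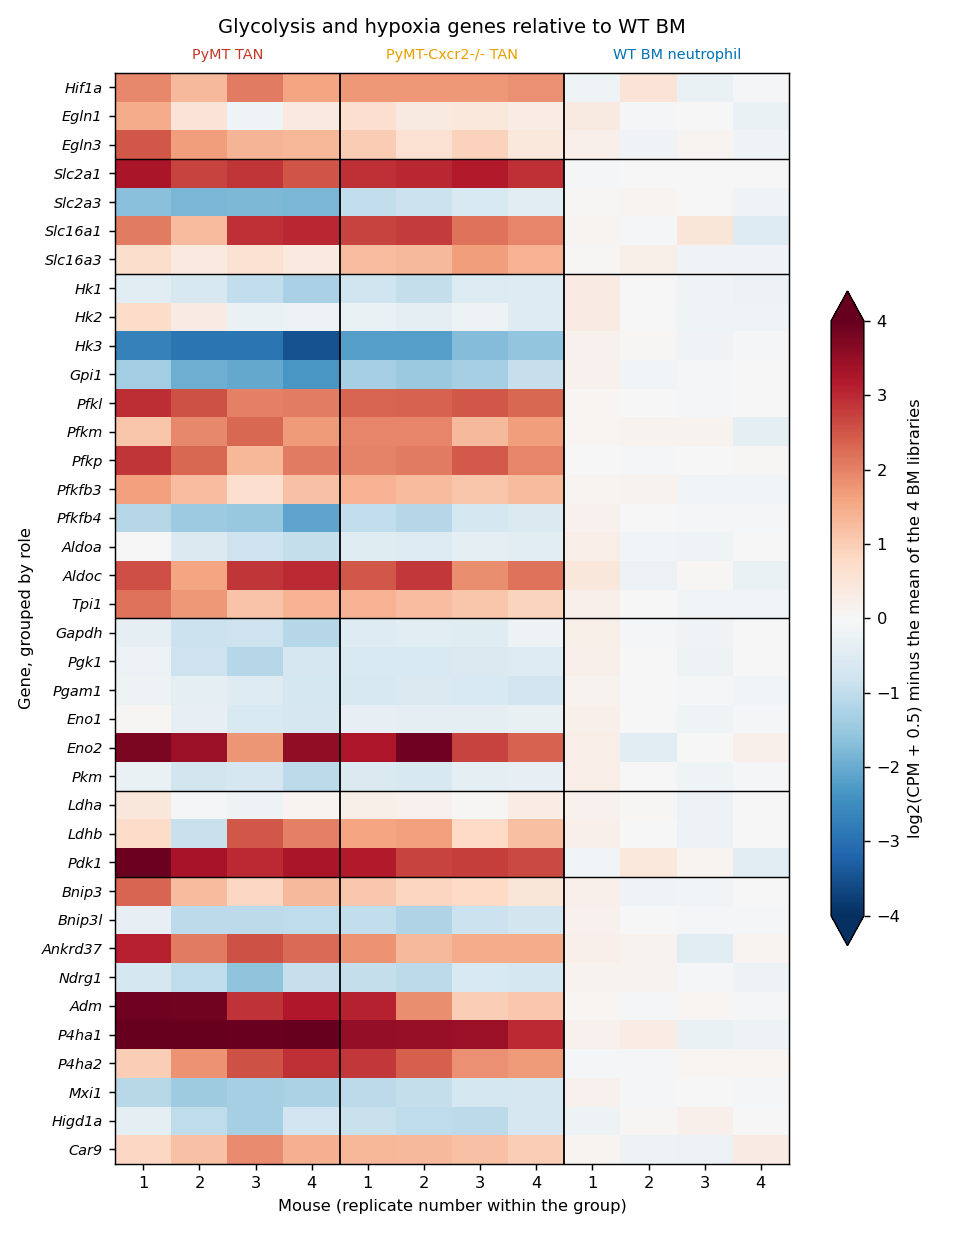
Heat map of the 38 members (rows, grouped by role with lines between roles) in the 12 libraries (columns), with color for log2(CPM + 0.5) minus the mean of the 4 BM libraries, clipped at 4 and -4. Slc2a1, Pdk1 and P4ha1 are raised in all 8 TAN libraries, while Hk3, Gpi1 and Slc2a3 are lowered in all 8.

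Hif1a, the oxygen-regulated subunit of the factor, was at 375.7, 244.6, 420.5 and 297.3 CPM in the PyMT TANs of mice 1 to 4. In PyMT-Cxcr2-/- TANs it was at 330.7, 329.5, 334.1 and 356.8 CPM, and in BM at 89, 142.3, 83.6 and 93.4 CPM. All TANs lay above all BM libraries, and both kinds of TANs overlapped. Hif1a was 3.47-fold higher in PyMT TANs (adjusted p = 2.9e-05) and 3.6-fold higher in PyMT-Cxcr2-/- TANs (adjusted p = 2.2e-07) than in BM. Egln3, a hydroxylase that marks Hif1a for decay and is itself a hypoxia target, was at 156.5, 89.7, 71.6 and 69.7 CPM in PyMT TANs, at 56.6, 42.2, 52.5 and 37.7 CPM in PyMT-Cxcr2-/- TANs and at 31.9, 25.3, 29.9 and 24.5 CPM in BM. The 3 groups did not overlap, with PyMT TANs highest and BM lowest. The log2 fold change of Egln3 against BM was 1.87 ± 0.24 (SE) in PyMT TANs and 0.88 ± 0.14 in PyMT-Cxcr2-/- TANs. Egln1, the main hydroxylase of Hif1a in normoxia, was at 20.2 to 64.6 CPM in PyMT TANs, 28.1 to 36.7 CPM in the PyMT-Cxcr2-/- group and 18.9 to 29.3 CPM in BM, so the groups overlapped. Its call in PyMT TANs (log2 fold change 0.75, adjusted p = 0.048) was lost in 7 of 8 fits that left out 1 mouse, with 0.35 without PyMT TAN mouse 1.

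The glucose transporters Slc2a1 and Slc2a3 moved in opposite directions. Slc2a1, the basal glucose carrier of most cells, was at 740.2, 499.5, 554.2 and 442.8 CPM in PyMT TANs, at 587.9, 620.1, 692.8 and 587.7 CPM in PyMT-Cxcr2-/- TANs and at 73.7, 77.6, 77.7 and 77.8 CPM in BM. All TANs lay far above all BM libraries. The gene lies at chr4:119108711-119137983 (mm10), and its level was 7.69-fold higher in PyMT TANs (adjusted p = 1.1e-07) and 8.81-fold higher in PyMT-Cxcr2-/- TANs (adjusted p = 2.0e-10). Slc2a3, a high-affinity glucose carrier, was at 663.7, 597, 600.2 and 587.3 CPM in PyMT TANs, at 1070, 1161, 1387 and 1547 CPM in the PyMT-Cxcr2-/- group and at 2165, 2273, 2070 and 1926 CPM in BM. The groups did not overlap, with BM highest and PyMT TANs lowest. Slc2a3 was 3.26-fold lower in PyMT TANs (adjusted p = 4.5e-07) and 1.5-fold lower in PyMT-Cxcr2-/- TANs (adjusted p = 0.0015). The latter value sits at the fold threshold and its call was lost in 3 of the 8 fits that left out 1 mouse, with log2 fold changes of -0.48, -0.52 and -0.57 without PyMT-Cxcr2-/- mouse 1, PyMT-Cxcr2-/- mouse 2 or BM mouse 2.

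Slc16a3, the carrier by which glycolytic cells export lactate, was at 1355, 1086, 1268 and 1089 CPM in PyMT TANs, at 1967, 2042, 2663 and 2193 CPM in the PyMT-Cxcr2-/- group and at 856.4, 970.9, 762.9 and 761.7 CPM in BM. BM was lowest and PyMT-Cxcr2-/- TANs highest, without overlap. The log2 fold change against BM was 0.60 ± 0.13 (SE) in PyMT TANs and 1.52 ± 0.14 in PyMT-Cxcr2-/- TANs, and the first was 0.28 (adjusted p = 0.14) when libraries were corrected for GC and length. Without 1 of PyMT TAN mice 1 and 3 or BM mice 1, 3 and 4 it was 0.51 to 0.56, under the fold threshold. Per kb of exon, Slc16a3 had the highest mean level of the 4 transporters in both kinds of TANs, at 225.6 ± 25.2 and 416.7 ± 58.8 CPM per kb (SD, n = 4), whereas Slc2a3 was highest in BM at 291 ± 20.3. Slc16a1, a carrier of lactate and pyruvate in either direction, stayed at 2.58 to 9.96 CPM in TANs and 0.391 to 1.31 CPM in BM. Its log2 fold change was 3.09 ± 0.52 in PyMT TANs and 3.09 ± 0.35 in PyMT-Cxcr2-/- TANs, the largest of the transporters in PyMT TANs at the lowest level.

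Upper glycolysis held 6 members that were higher, 4 that were lower and 2 that did not pass in either TAN comparison. Among the hexokinases, which trap glucose as glucose 6-phosphate, the myeloid form Hk3 was at 155.6, 132.7, 132.4 and 89.9 CPM in PyMT TANs, at 218.7, 215.9, 299.6 and 333.2 CPM in PyMT-Cxcr2-/- TANs and at 1135, 1037, 907.7 and 961 CPM in BM. The groups did not overlap and every TAN library was far below BM. Hk3 (chr13:55005985-55021385) was 7.5-fold lower in PyMT TANs (adjusted p = 2.0e-07) and 3.49-fold lower in PyMT-Cxcr2-/- TANs (adjusted p = 2.5e-07), the largest fall of any member in both. Hk1 was 1.67-fold and 1.52-fold lower, the latter call being lost without PyMT-Cxcr2-/- mouse 1 or 2 or BM mouse 1. Hk2, the inducible form, had log2 fold changes of 0.26 and -0.23 that did not pass. Gpi1, the next enzyme, was at 295.9 to 570.9 CPM in PyMT TANs, 529.9 to 793 CPM in the PyMT-Cxcr2-/- group and 1390 to 1671 CPM in BM, and was 3.52-fold and 2.19-fold lower.

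The phosphofructokinases, which catalyze the committed step, rose together. Pfkl was at 265.9, 200.2, 138.7 and 140.2 CPM in PyMT TANs, at 173.6, 176, 191.8 and 166.7 CPM in PyMT-Cxcr2-/- TANs and at 35.9, 34, 32 and 33.7 CPM in BM, with all TANs above BM. It was 5.78-fold (adjusted p = 1.2e-06) and 5.68-fold higher (adjusted p = 3.9e-10). Pfkp was 4.99-fold and 4.8-fold higher, and Pfkm, at 2.19 to 5.68 CPM in TANs, 5.47-fold and 5.25-fold higher. The 2 bifunctional enzymes that set the phosphofructokinase activator fructose 2,6-bisphosphate parted, with Pfkfb3 2.45-fold and 2.62-fold higher and Pfkfb4 2.72-fold and 1.65-fold lower. Of the aldolases, Aldoa did not pass (log2 fold changes -0.48 and -0.34), and Aldoc was at 9.99, 4.74, 12.2 and 13.4 CPM in PyMT TANs, at 9.31, 12.1, 5.94 and 7.38 CPM in PyMT-Cxcr2-/- TANs and at 1.92, 0.996, 1.31 and 0.95 CPM in BM. All TANs exceeded BM, with an 8.23-fold and a 7.28-fold higher level. Tpi1, which interconverts the triose phosphates, was 3.35-fold and 2.44-fold higher. In level per kb of exon, Aldoa was the highest of the role in every group, at 198.6 ± 63.2 in PyMT TANs, 211 ± 10.2 in the PyMT-Cxcr2-/- group and 291.1 ± 42.3 CPM per kb in BM (SD, n = 4), where Hk3 followed at 274.4 ± 26.9.

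In lower glycolysis, the steps that yield ATP, 3 of 6 members were lower in PyMT TANs and none in PyMT-Cxcr2-/- TANs, and Eno2 was higher in both. Gapdh was at 749.4, 529.8, 536.1 and 434.1 CPM in PyMT TANs, at 667.2, 719.4, 689.2 and 837 CPM in PyMT-Cxcr2-/- TANs and at 1118, 906.3, 870.4 and 953 CPM in BM. All TANs lay below all BM libraries, though PyMT-Cxcr2-/- TAN mouse 4 came close. Gapdh was 1.62-fold lower in PyMT TANs (adjusted p = 0.0031) and 1.22-fold lower in PyMT-Cxcr2-/- TANs (adjusted p = 0.05), the latter not past the fold threshold. It is one of the 2 internal controls that the study used for quantitative PCR. Pgk1 and Pkm were 1.53-fold and 1.5-fold lower in PyMT TANs and did not pass in PyMT-Cxcr2-/- TANs. Pgk1 lost its call without PyMT TAN mouse 2 or 3, and Pkm without PyMT TAN mouse 2 or 4 or BM mouse 1. Neither Pgam1 nor Eno1 passed in either comparison. Under scaling by library totals alone, Gapdh, Pgk1 and Pkm no longer passed in PyMT TANs, and Pgam1 and Eno1 changed sign there. Pkm had the highest level per kb of exon of the role in every group, at 250 ± 56.1, 282.6 ± 28.3 and 396.5 ± 52.6 CPM per kb (SD, n = 4), and its CPM were 961.9 to 1634, 1276 to 1553 and 1750 to 2355. Reads of these 5 genes, and of Gpi1, Ldha, Ldhb, Bnip3 and Bnip3l, are less certain than others, because near-identical copies of their transcripts, mostly pseudogenes, lie elsewhere in the genome.

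Eno2, the enolase best known from neurons, was at 9.99, 7.77, 2.13 and 8.5 CPM in PyMT TANs, at 6.75, 11, 4.47 and 3.42 CPM in PyMT-Cxcr2-/- TANs and at 0.419, 0.0622, 0.257 and 0.391 CPM in BM. Each TAN library was above each BM library, and PyMT TAN mouse 3 was the lowest TAN. It was 26-fold (adjusted p = 6.4e-05) and 24.3-fold higher (adjusted p = 2.6e-06). At these levels Eno2 made up 2.29% and 2.07% of the sum of Eno1 and Eno2 in TANs per kb of exon. Enolases outside the members were left out of this sum.

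At the fate of pyruvate, the kinase Pdk1, which switches off pyruvate dehydrogenase, was at 30.2, 19.1, 15.5 and 18.7 CPM in PyMT TANs, at 17.6, 12.6, 13.1 and 12 CPM in PyMT-Cxcr2-/- TANs and at 1.38, 2.18, 1.66 and 1.01 CPM in BM. The TANs lay far above BM without overlap. Pdk1 was 14.1-fold higher in PyMT TANs (adjusted p = 1.4e-06) and 9.68-fold higher in PyMT-Cxcr2-/- TANs (adjusted p = 8.2e-08). Ldha, which turns pyruvate into lactate and was the most abundant of the 3 per kb of exon, was at 302.4 to 477.3, 364.1 to 427.7 and 299 to 396 CPM in the 3 groups, with log2 fold changes of 0.17 and 0.30 that did not pass. Ldhb, the heart form, had 0 reads in PyMT TAN mouse 2, which allows up to 3, and 1.06 to 4.65 CPM in the other 7 TAN libraries, compared with 0.286 to 0.569 CPM in BM. It passed in PyMT-Cxcr2-/- TANs (log2 fold change 2.20 ± 0.37) but not in PyMT TANs (2.45 ± 1.07, adjusted p = 0.071). Without PyMT TAN mouse 2 it passed there too, with 2.85.

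**Figure D2:**
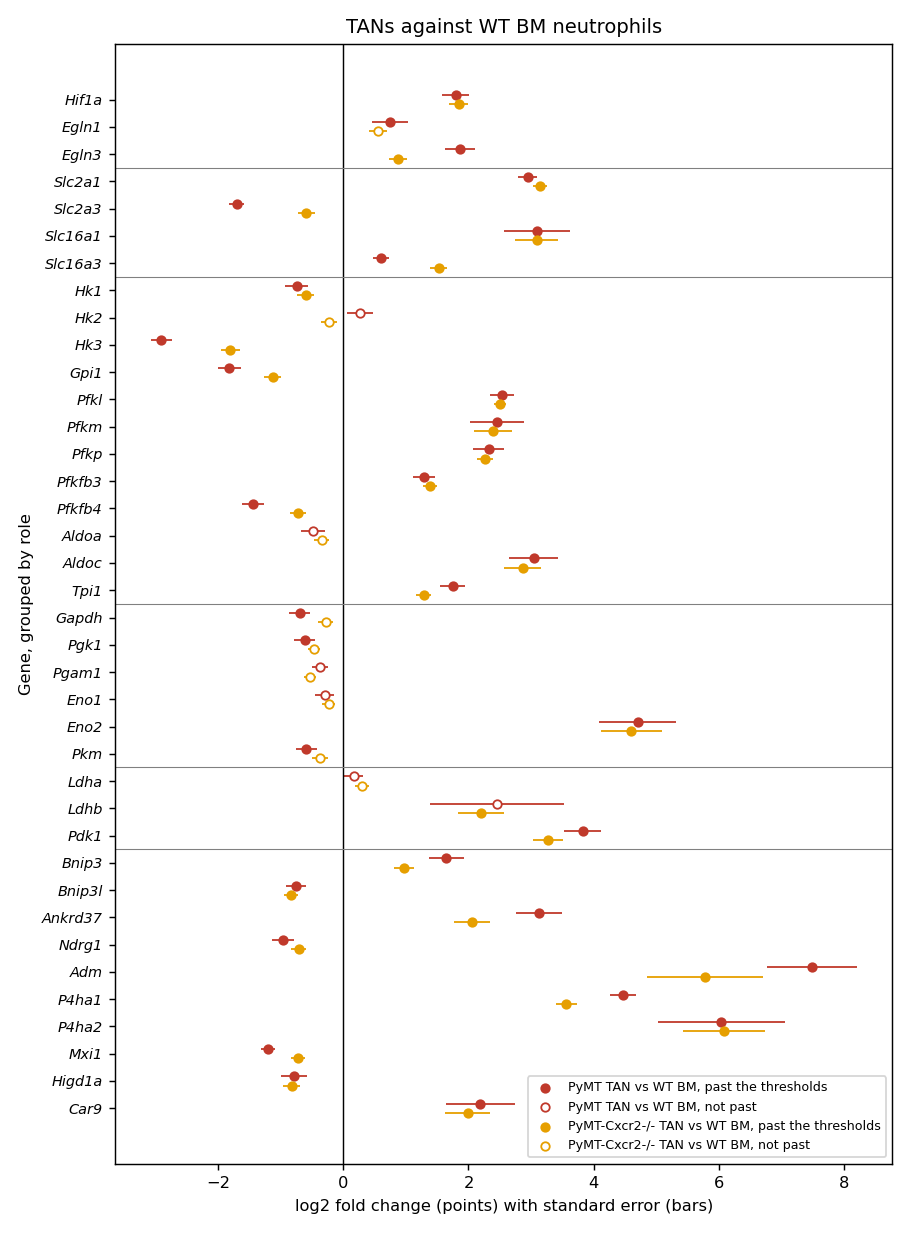
Log2 fold change (points) with its SE (bars) of the 38 members in PyMT TANs (red) and PyMT-Cxcr2-/- TANs (orange) against the same 4 BM libraries, with filled points past the thresholds. Slc2a1, Pfkl, Pdk1 and P4ha1 lie far to the right, Hk3 and Gpi1 to the left, and most of lower glycolysis near 0.

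Among the 10 other hypoxia targets, 6 were higher and 4 lower in each kind of TANs. P4ha1, the catalytic subunit of collagen prolyl 4-hydroxylase, was at 188, 135.3, 112.8 and 138.4 CPM in PyMT TANs, at 81.9, 79.9, 78.5 and 57.1 CPM in PyMT-Cxcr2-/- TANs and at 7.61, 8.5, 5.49 and 5.84 CPM in BM. The groups were far apart, with PyMT TANs highest and BM lowest. P4ha1 (chr10:59323296-59373304) was 22.1-fold higher in PyMT TANs (adjusted p = 4.7e-08) and 11.8-fold higher in PyMT-Cxcr2-/- TANs (adjusted p = 3.0e-09) and had the highest level per kb of exon of the role in PyMT TANs, at 34.9 ± 7.71 CPM per kb. Bnip3l, a mitophagy receptor, was highest of the role in the other groups, at 30.3 ± 3.98 and 58.5 ± 5.06, and was itself 1.69-fold and 1.78-fold lower in TANs.

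Adm, the vasodilator peptide adrenomedullin, was nearly absent from BM, with 2, 0, 2 and 0 reads, and had 343, 275, 103 and 212 reads in PyMT TANs and 207, 55, 26 and 30 reads in PyMT-Cxcr2-/- TANs. All TAN libraries were above BM, and PyMT-Cxcr2-/- TAN mouse 1 stood above the other 3 of its group. The fitted log2 fold changes, 7.49 ± 0.72 and 5.78 ± 0.92, rest on those 4 BM reads. P4ha2, the second catalytic subunit, had 0, 0, 2 and 2 reads in BM, 26, 50, 77 and 172 in PyMT TANs and 168, 87, 67 and 58 in PyMT-Cxcr2-/- TANs, with fitted log2 fold changes of 6.04 ± 1.02 and 6.08 ± 0.66 on the same footing. Ankrd37, a small ankyrin repeat protein, was at 11.5, 5.46, 7.61 and 6.18 CPM in PyMT TANs, at 4.35, 2.94, 3.41 and 3.44 CPM in PyMT-Cxcr2-/- TANs and at 1.11, 1.06, 0.514 and 1.01 CPM in BM, 8.76-fold and 4.16-fold higher. Bnip3, a mitophagy receptor related to Bnip3l, was 3.13-fold and 1.96-fold higher, and Car9, a carbonic anhydrase of the cell surface, 4.57-fold and 3.97-fold higher at 1.15 to 2.96 CPM. The 4 lower genes were Bnip3l, Ndrg1, Mxi1 and Higd1a. Mxi1, an antagonist of Myc, fell by 1.20 and 0.72 on the log2 scale, Ndrg1, a stress-response gene, by 0.96 and 0.71, and Higd1a, a mitochondrial protein, by 0.79 and 0.82.

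Within families the mix of isoenzymes changed, and such shares do not depend on how libraries are scaled. They were formed from CPM per kb of exon in each library, and the families were grouped after the values were known. Slc2a1 made up 7.02% ± 0.543 (SD, n = 4) of the 2 glucose carriers in BM, 64.9% ± 3.75 in PyMT TANs and 50.1% ± 4.2 in PyMT-Cxcr2-/- TANs. Hk3 was 84.7% ± 1.01 of the 3 hexokinases in BM, 43.7% ± 4.84 in PyMT TANs and 66.6% ± 4.43 in PyMT-Cxcr2-/- TANs. Hk2 went from 9.24% ± 0.546 in BM to 42.3% ± 4.93 in PyMT TANs and 22.3% ± 4.16 in PyMT-Cxcr2-/- TANs, although its CPM did not pass against BM. In these families the 3 groups did not overlap, and PyMT-Cxcr2-/- TANs lay between BM and PyMT TANs. Pfkfb3 made up 17% ± 1.06 of the bifunctional pair in BM, 57.5% ± 7.49 in PyMT TANs and 47.1% ± 5.72 in PyMT-Cxcr2-/- TANs. Egln1 was 37.8% ± 2.09 of the hydroxylase pair in BM, 21.5% ± 3.03 in PyMT TANs and 33% ± 2.35 in PyMT-Cxcr2-/- TANs.

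By 2-sided exact permutation tests of 4 mice against 4, the shares of Slc2a1, Hk1, Hk2, Hk3 and Egln1 had p = 0.0286 in all 3 comparisons. This is the smallest p such a test can give, and it was 0.048 after adjustment over 42 tests. The families were formed after the values were seen, shares within a family depend on each other, and the comparisons reuse groups. These p-values therefore restate that the groups did not overlap and are no independent support. The Pfkfb3 share had the same p against BM in both kinds of TANs, but not between them (exact p = 0.0857, adjusted p = 0.128). No difference in mix was detected for the phosphofructokinases, with Pfkl at 47.7% ± 1.6 in BM, 51.7% ± 4.53 in PyMT TANs and 52% ± 2.32 in PyMT-Cxcr2-/- TANs, and none of the 9 tests on this family passed (lowest exact p = 0.0857, lowest adjusted p = 0.128). The neutrophil marker sums given above fell in the same order, BM, PyMT-Cxcr2-/- TANs and PyMT TANs, and a list of 9 neutrophil precursor genes did too, at 28727 to 45585, 2032 to 6492 and 533.7 to 768 CPM. Their part in the shares was not tested.

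**Figure D3:**
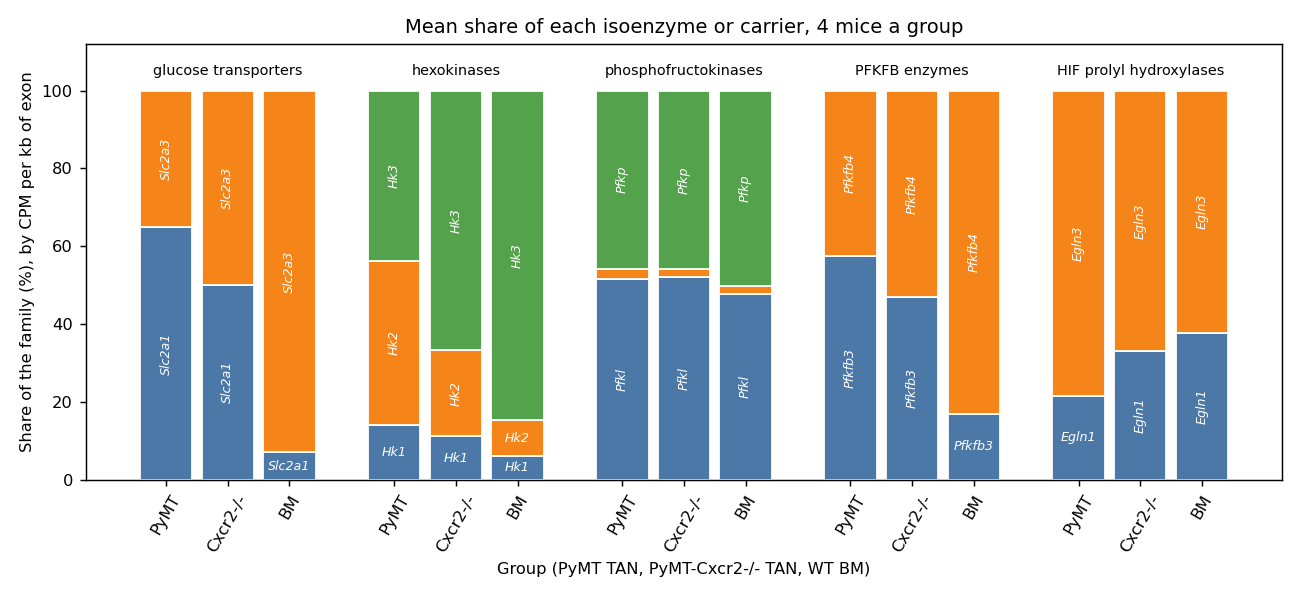
Stacked bars of the mean share (%) of each gene among the members of its family, from CPM per kb of exon, in PyMT TANs, PyMT-Cxcr2-/- TANs and BM (4 mice a group, with SDs in the text). Slc2a1 goes from 7.02% in BM to 64.9% in PyMT TANs and Hk3 from 84.7% to 43.7%, while the phosphofructokinases hardly shift (the thin middle segment is Pfkm).

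The study reports that tumors of PyMT-Cxcr2-/- mice were heavier and held more neutrophils and fewer macrophages. Between the TANs, loss of Cxcr2 therefore cannot be told apart from these differences between the tumors. In this comparison the PyMT-Cxcr2-/- group had 3 members (7.89%) higher and 1 (2.63%) lower. Of the 18463 genes tested, 1.38% were higher and 0.596% lower. The median log2 fold change over the members was -0.09 and over all genes -0.07. Library totals alone, which shifted all genes by -0.19, gave 3 higher and 3 lower. Slc2a3 had 587.3 to 663.7 CPM in PyMT TANs but 1070 to 1547 CPM in the PyMT-Cxcr2-/- group, and was 2.06-fold higher (log2 fold change 1.04 ± 0.15, adjusted p = 0.01). Hk3 was 2.04-fold higher (1.03 ± 0.20, adjusted p = 0.025) and Slc16a3 1.8-fold higher (0.85 ± 0.15, adjusted p = 0.019). P4ha1 was 1.97-fold lower (-0.98 ± 0.18, adjusted p = 0.019). None of the 4 genes overlapped between both kinds of TANs. For Slc2a3 and Hk3 the PyMT-Cxcr2-/- TANs lay between PyMT TANs and BM, for P4ha1 likewise, and for Slc16a3 they were above both.

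Several other members had the sign of P4ha1 without passing. Egln3 had a log2 fold change of -1.06 ± 0.25 (adjusted p = 0.055) and Ankrd37 of -1.15 ± 0.29 (adjusted p = 0.07), and neither overlapped between both kinds of TANs. For Adm the value was -1.80 ± 0.60 (adjusted p = 0.16), for Bnip3 -0.76 ± 0.28 (adjusted p = 0.21) and for Pdk1 -0.62 ± 0.22 (adjusted p = 0.19), with overlap. Among the other hypoxia targets, Mxi1 and Ndrg1 had the opposite sign. Mxi1 was at 0.41 ± 0.14 (adjusted p = 0.17) without overlap and Ndrg1 at 0.18 ± 0.19 (adjusted p = 0.76) with overlap. The share of all genes without overlap is not given here. Slc2a1 and Hif1a had overlapping levels and adjusted p of 0.83 and 0.98. In upper glycolysis Gpi1 (0.61 ± 0.20, adjusted p = 0.15) and Pfkfb4 (0.65 ± 0.20, adjusted p = 0.13) lay higher without passing, and in lower glycolysis the largest value was that of Gapdh (0.34 ± 0.17, adjusted p = 0.38).

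These 4 calls were narrow. Without PyMT TAN mouse 2, none of the members passed, with an adjusted p of 0.05 for Slc2a3, 0.072 for P4ha1, 0.083 for Slc16a3 and 0.089 for Hk3. Without PyMT-Cxcr2-/- TAN mouse 3 or mouse 4, only Slc2a3 passed among the members. The sizes moved little over the 8 fits that left out 1 mouse, at 0.97 to 1.13 for Slc2a3, 0.90 to 1.17 for Hk3, 0.77 to 0.95 for Slc16a3 and -1.07 to -0.79 for P4ha1. With libraries corrected for GC and length, Slc2a3 and Hk3 passed (adjusted p = 0.027 and 0.044) and P4ha1 and Slc16a3 did not (0.052 and 0.077). DESeq2 called 5 members higher and 4 lower, adding Gpi1 and Pfkfb4 on the higher side and Egln3, Ankrd37 and Adm on the lower. It also called more of all genes, 691 higher and 348 lower, compared with 255 and 110 with edgeR.

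**Figure D4:**
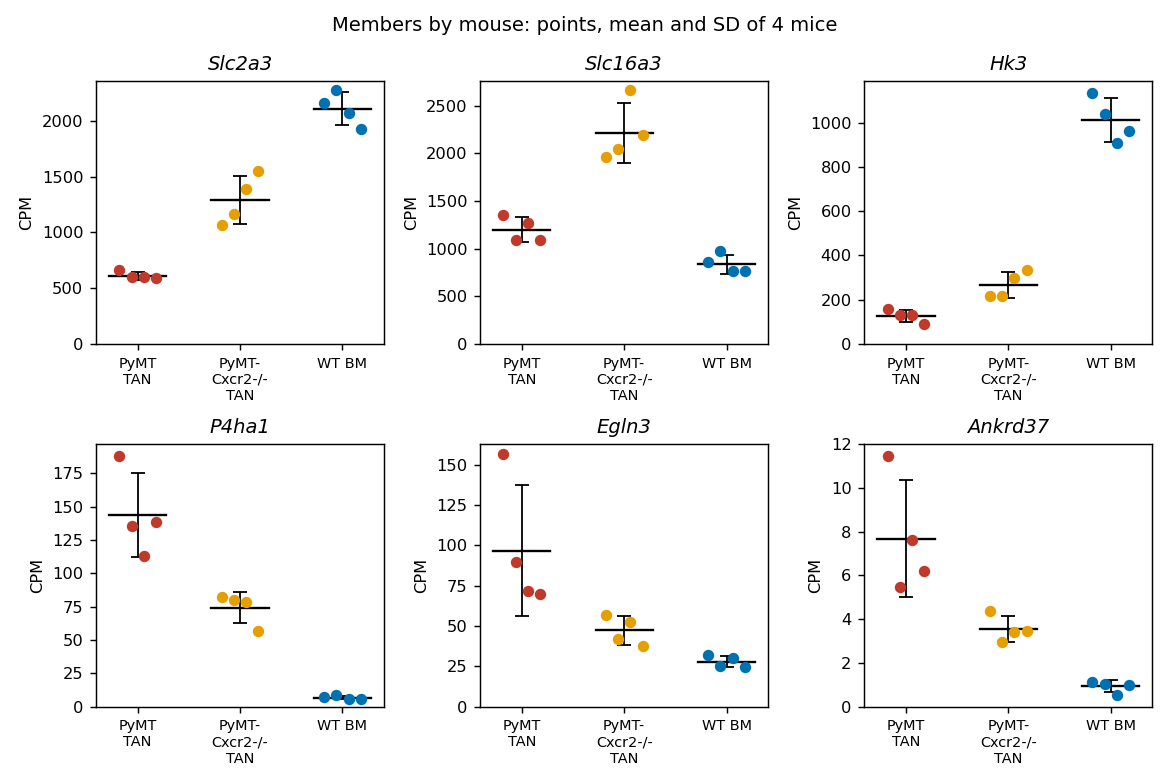
CPM by mouse (points) with mean and SD of 4 mice for Slc2a3, Slc16a3, Hk3, P4ha1, Egln3 and Ankrd37 in the 3 groups, on linear axes from 0. In all 6 panels the points of both kinds of TANs do not overlap, and Egln3 and Ankrd37 did not pass the test (adjusted p = 0.055 and 0.07).

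PyMT TAN mouse 1 had the highest level of its group in 31 of the 38 members, whereas it was highest for 28.3% of all 18463 genes. For Bnip3 it had 59.5 CPM against 20.6 to 28.9 CPM in the other 3, for Egln1 64.6 against 20.2 to 32.8 CPM and for Bnip3l 179.2 against 107.6 to 111.1 CPM. In BM, mouse 1 was highest in 24 members (63.2%), compared with 35.9% of all genes, and in PyMT-Cxcr2-/- TANs no mouse was highest in more than 14 members. Without PyMT TAN mouse 1, 18 members were higher and 13 lower in PyMT TANs than in BM. Between the TANs, leaving this mouse out gave 4 higher and 1 lower, and the log2 fold change of Egln3 went from -1.06 to -0.70, that of Ankrd37 from -1.15 to -0.86 and that of P4ha1 from -0.98 to -0.79. Its macrophage marker sum, at 2136 CPM, and its epithelial sum, at 47.5 CPM, were the lowest of the 8 TAN libraries.

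**Figure D5:**
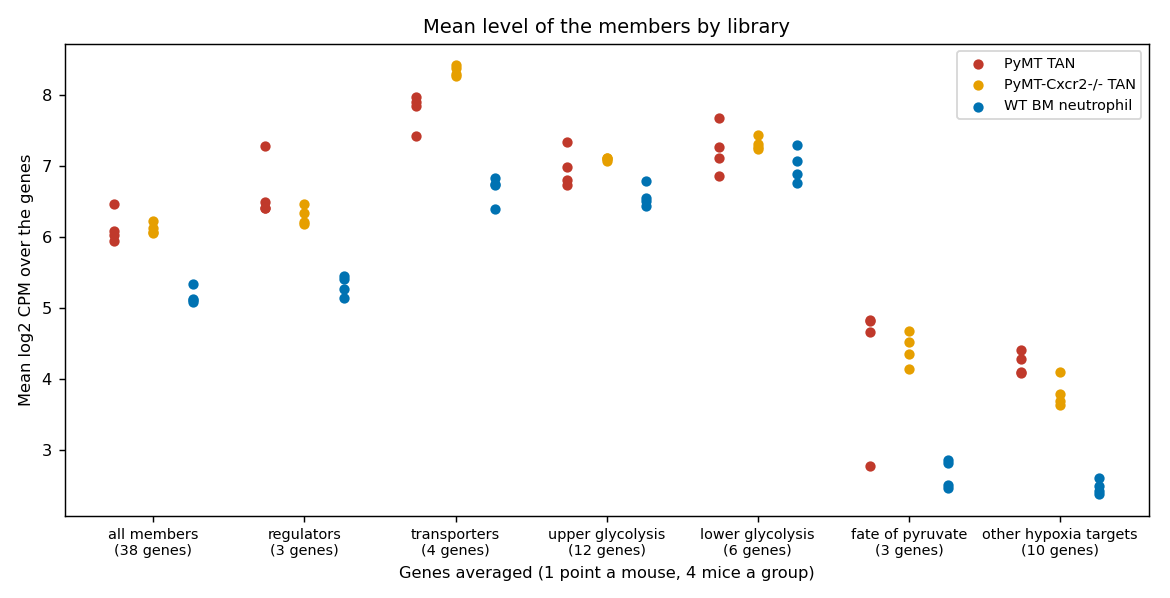
Mean log2 CPM over all 38 members and over each role, with 1 point per mouse for PyMT TANs (red), PyMT-Cxcr2-/- TANs (orange) and BM (blue). Over all members the TANs lie at 5.95 to 6.47 and BM at 5.08 to 5.34, whereas for lower glycolysis the 3 groups overlap. For upper glycolysis and the fate of pyruvate, PyMT TANs overlap with BM.

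The share of members that were highest in the TAN libraries with the highest epithelial marker sum was near that of all genes. In PyMT TANs that sum was 47.5, 60.6, 321.1 and 445.2 CPM in mice 1 to 4, and in PyMT-Cxcr2-/- TANs 244.5, 312.6, 84.1 and 119.5 CPM. Slc16a1, Aldoc, Ldhb, P4ha2 and Car9 were highest in both pairs of libraries with the highest sum, PyMT mice 3 and 4 and PyMT-Cxcr2-/- mice 1 and 2. These 5 of 38 members (13.2%) compare with 10.5% of all genes tested, so the share is near the background. Leaving out these 4 libraries together, Slc16a1 had log2 fold changes against BM of 2.20 and 2.70, Aldoc 2.55 and 2.51, P4ha2 4.87 and 5.47 and Car9 1.64 and 1.86, all past the thresholds, while Ldhb had 0.35 in PyMT TANs and 1.79 in PyMT-Cxcr2-/- TANs and passed in the latter only. Without these libraries 19 members were higher and 8 lower in PyMT TANs than in BM, and 20 higher and 4 lower in PyMT-Cxcr2-/- TANs.

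The neighboring pathways are given by counts, to be read against the 30.1% higher and 23.2% lower of all genes in PyMT TANs and the 34.4% and 25.1% in PyMT-Cxcr2-/- TANs. Counts of 2 or 3 genes of about 10 lie near those shares. All 8 genes of the pentose phosphate pathway, which supplies the NADPH for the oxidative burst, were lower than in BM in both kinds of TANs, with a median log2 fold change of -2.01 in PyMT TANs and -1.35 in PyMT-Cxcr2-/- TANs. Tkt, G6pdx and Pgd of this list were higher in PyMT-Cxcr2-/- than in PyMT TANs, by log2 fold changes of 1.19, 1.11 and 0.92 (adjusted p = 0.019, 0.029 and 0.048). Of 10 glycogen genes tested, 7 were lower and 2 higher in PyMT TANs and 6 lower and 3 higher in PyMT-Cxcr2-/- TANs. Pyruvate dehydrogenase and its regulators were mixed, with 2 higher and 3 lower of 10 tested in PyMT TANs and 2 higher and 2 lower of 11 in PyMT-Cxcr2-/- TANs. Of the hypoxia targets beside the members, 10 of 13 tested were higher in PyMT TANs and 11 of 14 in PyMT-Cxcr2-/- TANs, and none was lower. The list holds 17 genes, and those not tested failed the filter on low counts. Genes near 0 in BM pass this filter only through the TANs and could only come out higher. The absence of lower genes is thus partly fixed in advance. Ak4, an adenylate kinase of this list, had a mean of 4.68 CPM in PyMT TANs, 2.97 CPM in the PyMT-Cxcr2-/- group and 0.0286 CPM, below the level of 3 reads, in BM. Of 10 other regulators of the Hif pathway tested, 2 were higher and 4 lower in PyMT TANs and 2 higher and 3 lower in PyMT-Cxcr2-/- TANs. Other isoenzymes and carriers of glycolysis were 2 higher and 2 lower of 11 tested in PyMT TANs and 3 higher and 2 lower of 10 in PyMT-Cxcr2-/- TANs. Of all genes tested between both kinds of TANs, 1.38% were higher in the PyMT-Cxcr2-/- group. Besides the pentose phosphate genes above, 1 of 11 other isoenzymes and carriers and 1 of 10 glycogen genes tested were higher there. They were the glucose carrier Slc2a6, 1.88-fold higher (adjusted p = 0.018), and Gyg, the glycogenin that primes glycogen, 1.85-fold higher (adjusted p = 0.028), both named after their values were seen. With edgeR none of the 11 genes of pyruvate dehydrogenase and its regulators, of the 16 further hypoxia targets and of the 11 other Hif regulators passed. DESeq2 called 1 higher, Pdk3, in the first list, 2 lower, Ero1l and Hilpda, in the second and 0 in the third. Over all genes it called 691 higher and 348 lower.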

How the data were processed

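Counts per gene were used from 12 RNA-seq libraries, 1 per mouse, 4 mice in each of 3 groups taken from the sample labels. Per the study's methods, directional libraries were made after removal of ribosomal RNA, and paired-end reads were trimmed by the authors. STAR (genome mm10) was the aligner and HTSeq the counter. The deposited files hold raw counts. FastQC, HTSeq and mm10 are also in the submitters' processing notes. The annotation release and the strand setting of the counting are not given in the sources used here, so overlapping and antisense genes are uncertain. Reads that HTSeq assigned to no feature (32% to 52.5% of a library) stayed out of totals and tests.

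Symbols, positions and exon lengths came from GENCODE M21, which matched 55154 of 55335 genes. The symbol Aldoa had 2 rows, and the one with more reads was used. The 3 comparisons were each fitted on their 2 groups with edgeR 4.0.16 in R 4.3.3 (TMM, filterByExpr, robust quasi-likelihood test). A call needed a Benjamini-Hochberg adjusted p under 0.05 over all genes tested and a 1.5-fold change. The SE was obtained as |log2 fold change| over the root of the F statistic. CPM used TMM factors over the 12 libraries, and log2 CPM a prior count of 2. The depth, 25032704 to 51351569 reads on genes, limits genes near 3 reads. The edgeR p-values set each group difference against the spread between these mice, moderated over genes. No 2 replicates agreed within counting error, with a chi-square over its degrees of freedom of 23 to 137. Alternatives were other scaling, filters and thresholds, 12 libraries in one fit, DESeq2 1.42.0, the replicate number as a block, adjustment of each library for GC content and gene length, and each mouse left out. Leaving out the 4 TAN libraries highest in epithelial markers was chosen after seeing the data, as was the grouping into families. The procedures were tested on simulated data.

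The members and lists were chosen with earlier results of these data known. Any member may be named. Values in every library are given for members with the largest change or the highest level per length in their role, and for those past the thresholds between the TANs. Of the other pathway genes, at most the 3 with the largest change in a comparison are named. One gene that this rule would name is not reported here.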

Additional observations from a re-analysis of the deposited data

Results flagged for a closer look

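In 7 of 114 groups of 4 libraries (38 members in 3 groups), 1 library stood far from the other 3 by Dixon's test on the log2 scale, and chance alone gives about 1 in 20. In PyMT TANs, Bnip3l was at 179 CPM in mouse 1, against 107.6 to 111.1 in the others. Eno2 was at 2.13 CPM in PyMT TAN mouse 3, against 7.77 to 9.99. In PyMT-Cxcr2-/- TANs, P4ha1 was at 57.1 CPM in mouse 4, against 78.5 to 81.9. In BM, Slc2a1 was at 73.7 CPM in mouse 1 (77.6 to 77.8 in the others), Pfkp at 66.9 CPM in mouse 2 (72.6 to 73.5), Ankrd37 at 0.514 CPM in mouse 3 (1.01 to 1.11) and Pfkm at 0.475 CPM in mouse 4 (0.809 to 0.886).

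Between the 2 tumor genotypes, 4 members differed by the direct test of PyMT-Cxcr2-/- against PyMT TANs given above. Without BM neutrophils of Cxcr2-/- mice, a change from BM to tumor within that genotype was not measured. The difference was 1.04 on the log2 scale for Slc2a3, 1.03 for Hk3, 0.85 for Slc16a3 and -0.98 for P4ha1, each with all 4 mice of one genotype on one side of all 4 mice of the other.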

How the results depend on the processing

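Among members called against BM, 18 of the 20 higher and 5 of the 12 lower in PyMT TANs, and 17 of the 20 higher and 2 of the 9 lower in PyMT-Cxcr2-/- TANs, kept their call in every alternative. In PyMT TANs the number of lower members was 5 with library totals alone and 5 at a 2-fold threshold. In PyMT-Cxcr2-/- TANs it was 4 with library totals alone, 14 by adjusted p alone, 2 at a 2-fold threshold and 4 without the 4 libraries highest in epithelial markers. With library totals alone, Pgam1 and Eno1 changed sign in PyMT TANs, to 0.069 and 0.14. Leaving out 1 mouse gave 18 to 20 higher and 10 to 13 lower members in PyMT TANs, and 20 or 21 higher (19 with 12 libraries in one fit) and 7 to 9 lower in PyMT-Cxcr2-/- TANs.

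Between the TANs, the counts of 3 higher and 1 lower changed more. Leaving out 1 mouse gave 0 to 4 higher and 0 to 2 lower, with 0 and 0 without PyMT TAN mouse 2 and 1 and 0 without PyMT-Cxcr2-/- TAN mouse 3 or 4. DESeq2 gave 5 and 4, library totals alone 3 and 3, 12 libraries in one fit 4 and 3, no filter 4 and 2, a filter of 1 CPM in 4 libraries 3 and 2, a 2-fold threshold 2 and 0, and GC and length adjustment 2 and 0. Over all genes, DESeq2 called 691 higher and 348 lower, compared with 255 and 110 in the reported fit. With the 4 libraries highest in epithelial markers left out, 0 members were higher and 1 (Adm) lower. The replicate number as a block gave 0 higher and 0 lower, with or without the GC and length adjustment. Same-numbered mice are different animals whose deviations had a mean correlation of -0.04 (-0.21 to 0.08), so this pairing has no basis in the design. Of the 27 members past the thresholds between the TANs in no fit and not largest in their role, 21 changed sign in some alternative, none of them larger than 0.32 on the log2 scale in the reported fit. The cause of these changes was not tested.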
